A study of Homo sapiens with 6 samples.

Results

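The KLF, SOX and FOX genes were compared between SKOV3 cells grown in 3D and in 2D culture. They are 71 genes, 16 KLF, 17 SOX and 38 FOX, of 14884 genes measured. Members were chosen by a rule on the symbol, set with earlier results of these data known. The rule takes every gene of the array annotation named KLF, SOX or FOX (letters A to S) followed by a number. It leaves out KLF4, SOX2, SOX9, FOXA1 and FOXA2. SKOV3 is an established human ovarian cancer cell line. In the 3D group (n = 3) cells were kept for 11 days on low-attachment plates with FP001 at 0.015% (w/v), a code-named additive whose composition the labels do not give. In the 2D group (n = 3), the control, they were kept for 11 days on normal attachment plates in normal medium without FP001. Both groups grew in McCoy's 5A medium with 15% serum and received no other agent that the labels name. Plate and additive differed together, so their effects cannot be told apart. Whether the replicates were separate cultures is not stated, so the p-values below reflect spread that may be purely technical.

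KLF proteins bind GC-rich and CACCC sequences through zinc fingers, SOX proteins bend DNA at short AT-rich sites through an HMG box, and FOX proteins bind through a forkhead, or winged helix, domain. Within each family the DNA-binding domains are much alike, while the remainder of the protein recruits different activators or repressors. Members are known as regulators of lineage and growth: SOX17 is a marker of Müllerian and ovarian carcinoma cells, FOXO factors are kept out of the nucleus by AKT downstream of insulin and PI3K, and FOXM1 drives genes of mitosis.

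Values are log2 RMA values of 1 array per sample. RMA corrects background, brings arrays to a common distribution and summarises the probes of a set. A change of 1 is a doubling, and levels of different genes cannot be set against each other because each has its own probes. The quartiles of all probe sets were used as a guide to dim and bright signals. They averaged 2.93, 4.33 and 6.10 over the 6 arrays, and the table holds no detection calls. Of the members, 35 lay above the upper quartile, 22 between median and upper quartile, 12 between lower quartile and median, and SOX3 and FOXR2 below the lower quartile. By family, 12 of 16 KLF genes, 5 of 17 SOX genes and 18 of 38 FOX genes were above the upper quartile. Of all 14884 genes, 6514 were above the upper quartile and 4271 between it and the median. The quartiles include probe sets without a gene symbol.

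Across the 71 genes, arrays of the same group correlated at 0.990 to 0.995 and arrays of different groups at 0.960 to 0.964. Over all 14884 genes 3D replicate 1 stood apart on the second principal component, at -26.0 against 9.39 and 10.1 for 3D replicates 2 and 3. Counts are therefore also given without it. Leaving it out raised the calls over all genes from 1488 to 1899, the total beside which those counts are to be read. The labels name no batch. Of 10 markers of an ovarian carcinoma line 8 were measured, among them the Müllerian lineage factor PAX8, at 10.15, 10.44 and 10.44 on the 3D arrays and 10.13, 10.25 and 10.15 on the 2D arrays. PAX8 did not pass, but 3 of these 8 markers did (37.5%, against 10.0% of all genes): the keratin gene KRT19 (2.70 ± 0.24 SE, limma adjusted p = 0.000495) and the epithelial adhesion gene EPCAM (1.76 ± 0.11, adjusted p = 0.000159) rose, and the keratin gene KRT7 fell (-0.93 ± 0.14, adjusted p = 0.00532). Without 3D replicate 1, 4 of them rose and 1 fell. The mean log2 value of the 8 markers was 7.78 to 8.02 on the 3D arrays and 7.32 to 7.39 on the 2D arrays, and the part of this shift in the results below was not tested.

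Of the 71 genes, 6 rose and 6 fell in 3D at an adjusted p under 0.05 (limma, Benjamini-Hochberg over all genes). These 12 are 16.9% of the members, whereas 10.0% of all genes were called, 5.23% higher and 4.77% lower in 3D. Raised were SOX17, FOXO1, SOX13, KLF5, KLF8 and FOXI3, and lowered were KLF7, FOXP1, FOXF2, FOXP2, SOX12 and FOXK1. At least 2-fold changes were SOX17 and FOXO1 upwards and KLF7 and FOXP1 downwards, against 2.88% of all genes called at that size. An unadjusted p under 0.05 was reached by 25 members, against 23.5% of all genes. The median change was -0.03 among members and -0.01 among all genes. The 3D and 2D arrays did not overlap for 28 members (39.4%), against 29.2% of all genes. Without 3D replicate 1, 4 members rose and 7 fell. The split was less even under 2 other settings. With a trended robust variance 5 members rose and 11 fell, beside 977 risen and 954 fallen of all genes. Among the probe sets left by a filter on dim signals, which removed KLF8, 5 members rose and 9 fell, beside 891 and 878.

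**Figure D1:**
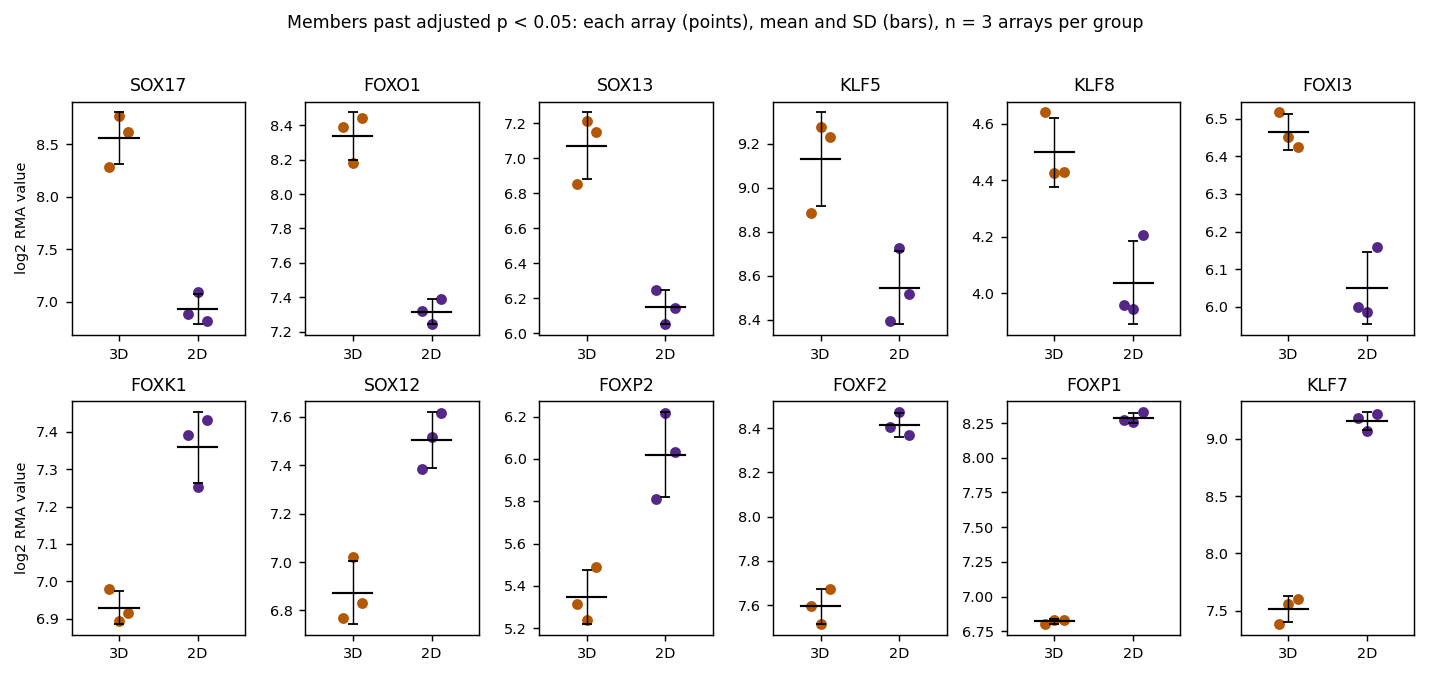
Log2 RMA value (y axis, a separate range per gene) of the 12 called genes on each 3D array (left of each panel) and 2D array (right). Points are arrays and bars are the mean and SD of 3; in every panel the 2 groups are separate, most widely in SOX17, FOXP1 and KLF7.

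Because bright genes were called more often, the members were also set beside genes of similar level. Above the upper quartile 10 of 35 members were called (28.6%), against 14.7% of all genes there. Between median and upper quartile 1 of 22 members was called (4.55%), against 9.51% of all genes. The members called from the dimmer ranges were FOXP2 and KLF8. Calls of KLF7, FOXP1, FOXF2, SOX17, FOXO1 and SOX13 held in all 6 fits that left out 1 array, against a 1.2-fold limit, and with the adjustment spread over all 53617 probe sets. The other 6 calls did not, with adjusted p-values of up to 0.140 for KLF5, 0.150 for KLF8, 0.115 for FOXI3, 0.114 for FOXK1, 0.0740 for FOXP2 and 0.0535 for SOX12 when an array was left out.

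**Figure D2:**
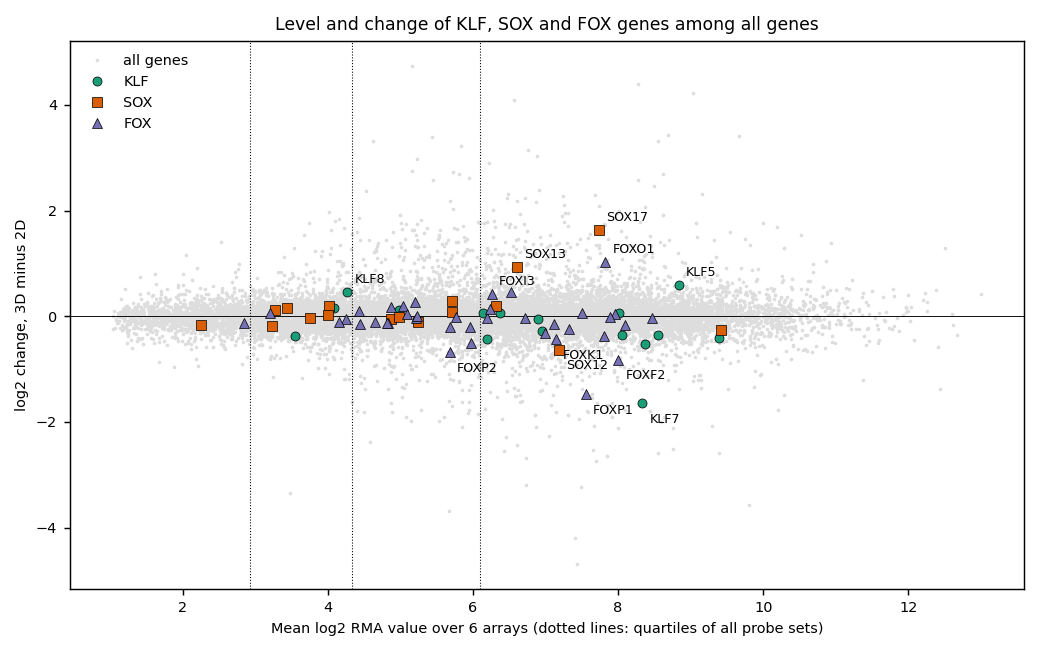
Change in 3D relative to 2D (y axis, log2) against the mean log2 value over 6 arrays (x axis) for KLF (circles), SOX (squares) and FOX (triangles) genes over all 14884 genes in grey; the 12 called genes are named. Of these 12, 10 lie right of the upper quartile at 6.10, and the largest change, that of KLF7, ranks 141 among all genes by size.

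Promoter windows were found for 11 of the 12 called genes, and SOX17 had none. The promoters shown are those of the 6 genes among these 11 with a single window, so the window is not a choice among several. FOXO1, SOX13 and FOXI3 rose and FOXF2, SOX12 and FOXK1 fell. Each line holds 250 bases before and 50 after the start on the gene's own strand, 5′ to 3′, from RefSeq (GRCh38.p14). Capitals mark matches on either strand to CACCC (the KLF type of site), to TGTTTAC (the forkhead type) or to ACAANG (the SOX type). The windows are chr13:40666592-40666891, minus strand, for FOXO1, chr1:204072865-204073164, plus strand, for SOX13, chr6:1389326-1389625, plus strand, for FOXF2, chr20:325302-325601, plus strand, for SOX12, chr2:88452644-88452943, minus strand, for FOXI3 and chr7:4682045-4682344, plus strand, for FOXK1.
FOXO1: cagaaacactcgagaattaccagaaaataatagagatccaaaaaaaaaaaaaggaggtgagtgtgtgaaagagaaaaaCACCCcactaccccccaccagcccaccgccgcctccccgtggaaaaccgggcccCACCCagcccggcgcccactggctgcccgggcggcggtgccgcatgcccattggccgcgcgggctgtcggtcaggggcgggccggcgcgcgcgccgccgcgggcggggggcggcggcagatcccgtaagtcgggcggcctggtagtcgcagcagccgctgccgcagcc
SOX13: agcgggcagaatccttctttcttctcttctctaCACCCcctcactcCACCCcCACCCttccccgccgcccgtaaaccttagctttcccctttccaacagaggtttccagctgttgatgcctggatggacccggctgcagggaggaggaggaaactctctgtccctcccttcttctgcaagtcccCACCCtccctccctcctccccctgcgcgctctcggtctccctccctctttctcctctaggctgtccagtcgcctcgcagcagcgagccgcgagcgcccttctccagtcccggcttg
FOXF2: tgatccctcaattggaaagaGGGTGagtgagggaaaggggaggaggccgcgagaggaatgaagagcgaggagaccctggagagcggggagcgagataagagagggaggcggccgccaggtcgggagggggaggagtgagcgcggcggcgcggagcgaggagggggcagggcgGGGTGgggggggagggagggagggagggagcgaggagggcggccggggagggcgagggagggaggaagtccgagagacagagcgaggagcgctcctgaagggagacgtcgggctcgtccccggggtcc
SOX12: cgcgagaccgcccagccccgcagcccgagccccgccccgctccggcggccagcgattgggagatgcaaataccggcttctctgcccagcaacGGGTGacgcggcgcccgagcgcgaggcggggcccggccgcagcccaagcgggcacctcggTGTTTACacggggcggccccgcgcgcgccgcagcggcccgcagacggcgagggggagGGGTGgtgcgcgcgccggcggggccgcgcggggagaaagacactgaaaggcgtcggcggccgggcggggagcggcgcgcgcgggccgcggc
FOXI3: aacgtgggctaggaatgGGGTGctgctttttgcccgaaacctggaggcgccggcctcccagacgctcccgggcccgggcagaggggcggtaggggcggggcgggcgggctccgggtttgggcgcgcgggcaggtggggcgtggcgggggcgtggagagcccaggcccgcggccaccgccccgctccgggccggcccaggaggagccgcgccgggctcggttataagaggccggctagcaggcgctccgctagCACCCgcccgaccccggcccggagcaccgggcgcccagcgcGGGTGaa
FOXK1: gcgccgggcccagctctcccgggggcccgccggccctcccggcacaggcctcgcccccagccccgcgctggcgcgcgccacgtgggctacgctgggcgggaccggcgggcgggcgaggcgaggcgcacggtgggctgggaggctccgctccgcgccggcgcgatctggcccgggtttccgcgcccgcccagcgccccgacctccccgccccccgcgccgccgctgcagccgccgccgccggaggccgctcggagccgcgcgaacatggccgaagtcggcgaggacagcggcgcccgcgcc
CACCC occurred 2 times in the FOXO1 window, 4 times in that of SOX13, 2 times in that of FOXF2, 2 times in that of SOX12, 3 times in that of FOXI3 and 0 times in that of FOXK1. TGTTTAC occurred 1 time, in SOX12, and ACAANG in none of the 6. Over the 35116 promoter windows of the table, 59.9% held CACCC, 3.42% TGTTTAC and 35.5% ACAANG. Over the 80 windows found for 53 of the members, 62.5% held CACCC, 5.00% TGTTTAC and 32.5% ACAANG. The GC content of these 6 windows was 68.0%, 62.7%, 71.0%, 80.3%, 78.0% and 84.3% in the order printed, against medians of 63.7% over member windows and 58.7% over all. Member and other windows thus held each motif at shares that lie close together, and a match is a description of the sequence only. No match in the 6 printed windows overlaps another.

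Among the KLF genes 2 rose, 1 fell and 13 did not pass (18.8% called, against 10.0% of all genes), with a median change of -0.16. The groups did not overlap for 10 of 16 genes, 7 of them lower in 3D (62.5%, against 29.2% of all genes and 42.8% of genes above the upper quartile). Without 3D replicate 1, 1 rose and 2 fell. A trended robust variance gave 1 risen and 4 fallen KLF genes, and the filter on dim signals 1 and 3. Over all genes these settings called 1931 and 1769, against 1488 in the main fit.

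KLF7, an activator known for its part in the growth of neurons, changed most of all members. It read 7.38, 7.56 and 7.61 on the 3D arrays and 9.18, 9.06 and 9.22 on the 2D arrays. All 3 values in 3D were far below the lowest 2D value, and the spread within each group was small. The mean fell to 7.52 ± 0.12 in 3D, against 9.15 ± 0.08 in 2D (SD, n = 3 each), a log2 change of -1.64 ± 0.10 (SE, limma adjusted p = 0.000150), or 3.11-fold lower.

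KLF5, an activator of proliferating epithelial cells, moved the other way. Its values were 8.89, 9.28 and 9.23 in 3D and 8.39, 8.72 and 8.52 in 2D. 3D replicate 1 lay closest to the 2D arrays but above each of them. The change was 0.59 ± 0.14 (SE, limma adjusted p = 0.0395).

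KLF8, a repressor that works through the co-repressor CtBP, read 4.64, 4.42 and 4.43 in 3D and 3.96, 3.95 and 4.21 in 2D. The 2D values lie below the median of all probe sets, where RMA compresses changes, and the change of 0.46 ± 0.12 (SE, limma adjusted p = 0.0459) was close to the threshold.

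KLF6, a growth-inhibiting factor induced by injury, averaged 8.11 ± 0.31 in 3D and 8.63 ± 0.13 in 2D (SD, n = 3), and its change of -0.52 ± 0.16 did not pass (limma adjusted p = 0.0908). Its 3D arrays disagreed, with 7.76 on replicate 1 and 8.22 and 8.35 on replicates 2 and 3. KLF2, the factor that endothelium induces under flow, gave -0.28 ± 0.10 (limma adjusted p = 0.148). KLF1, the erythroid member of the same group of activators, gave 0.12. Of these 5 activators (KLF1, KLF2, KLF5, KLF6 and KLF7), 4 had groups that did not overlap, KLF5 higher in 3D and KLF2, KLF6 and KLF7 lower (29.2% of all genes did not overlap, and 42.8% of those above the upper quartile).

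The KLF genes whose proteins recruit the SIN3A co-repressor numbered 6, and 0 of them passed (limma). An unadjusted p under 0.05 was reached by 3 of them, against 23.5% of all genes. Those 3 were KLF9, which glucocorticoid and thyroid hormone induce (-0.43 ± 0.13 SE, adjusted p = 0.0800), and KLF10 and KLF11, early targets of TGF-beta (-0.41 ± 0.12, adjusted p = 0.0820, and -0.36 ± 0.12, adjusted p = 0.127). Each had all 3D arrays below all 2D arrays. These 3 of 6 genes are 50%, against 29.2% of all genes whose groups did not overlap and 42.8% of those above the upper quartile. KLF10, among the KLF genes with bright probe signals, averaged 9.19 ± 0.04 in 3D and 9.60 ± 0.21 in 2D (SD, n = 3). KLF13, KLF14 and KLF16 gave changes of -0.05 to 0.06, and their groups overlapped. The repressor KLF12 gave -0.36 ± 0.10 (adjusted p = 0.0770) and KLF3 gave 0.07 ± 0.13. KLF15, a metabolic regulator, and KLF17 lay below the median of all probe sets, with changes of -0.37 and 0.16 that did not pass.

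**Figure D3:**
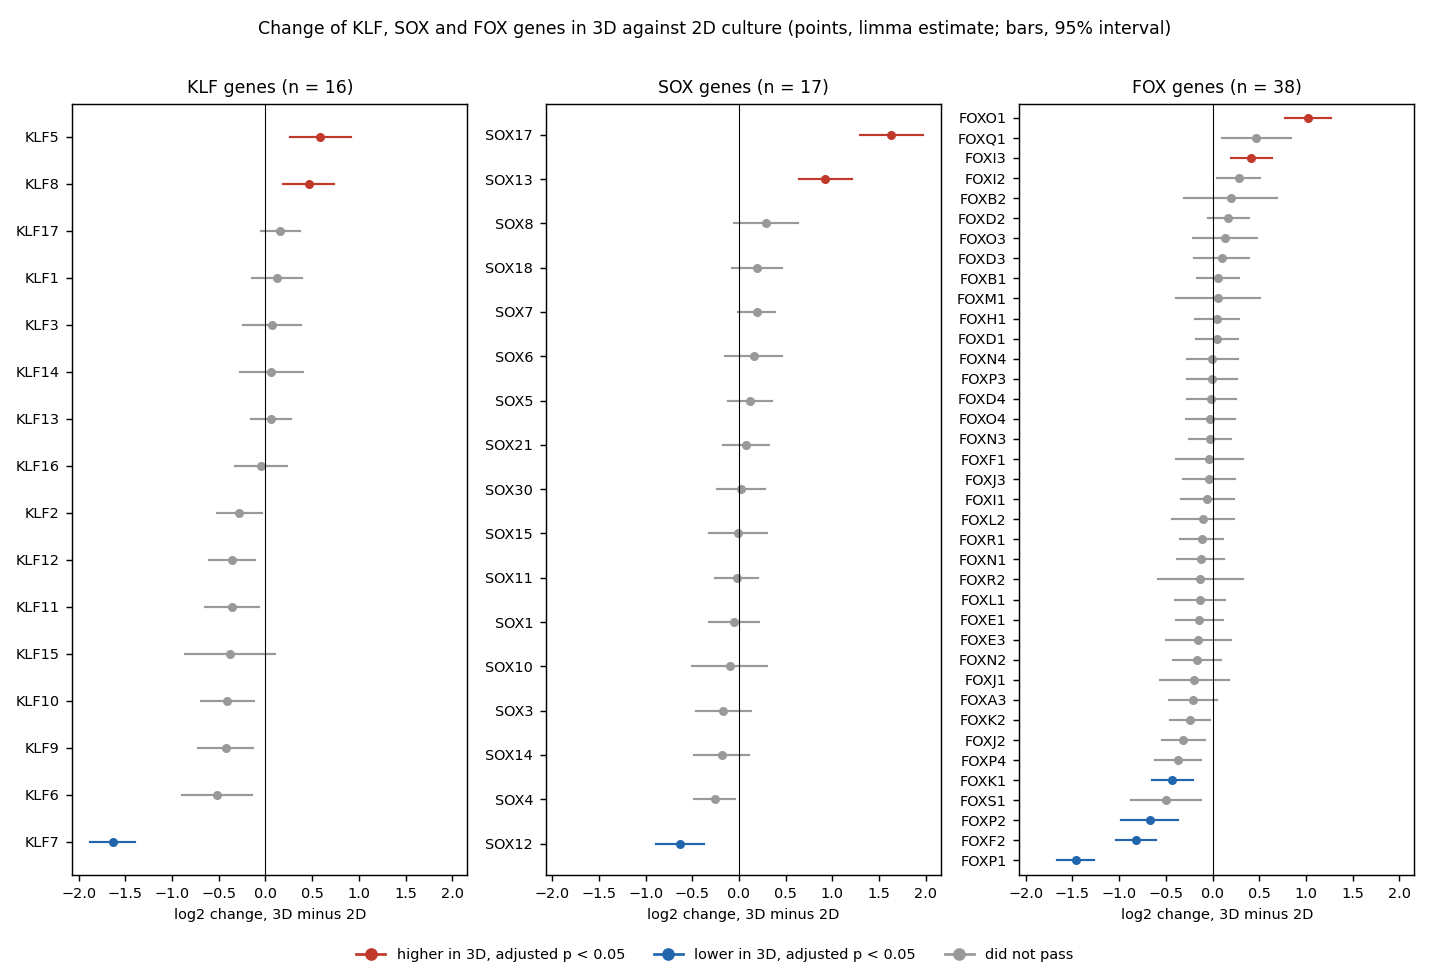
Log2 change in 3D relative to 2D (x axis) of each of the 16 KLF, 17 SOX and 38 FOX genes, as points with 95% intervals, coloured by whether the gene passed an adjusted p of 0.05. KLF7 at -1.64 and FOXP1 at -1.47 stand at one end, SOX17 at 1.63 and FOXO1 at 1.02 at the other, and most intervals include 0.

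Among the SOX genes 2 rose, 1 fell and 14 did not pass (17.6% called, against 10.0% of all genes). The same counts were obtained without 3D replicate 1. The median change was 0.02, and the groups did not overlap for 5 of 17 genes (29.4%, against 29.2% of all genes).

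SOX17, which specifies endoderm and endothelium and marks Müllerian epithelium, rose most of all members. It read 8.29, 8.77 and 8.62 in 3D and 6.88, 7.09 and 6.81 in 2D. The lowest 3D array, replicate 1, was still well above the highest 2D array. The mean rose to 8.56 ± 0.25 in 3D, against 6.93 ± 0.14 in 2D (SD, n = 3 each), a 3.10-fold rise (log2 change 1.63 ± 0.15 SE, limma adjusted p = 0.000551). Its group F relatives SOX7 and SOX18, which act beside it in mouse vessel development, gave 0.19 ± 0.09 (adjusted p = 0.234) and 0.19 ± 0.12 (adjusted p = 0.395). SOX7 was higher in 3D on every array, while SOX18 overlapped and was dim in both groups.

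Since SOX17 is also an endothelial gene, the markers of other cells were read beside it. Of 7 markers of fibroblasts and endothelium 3 were measured, with mean log2 values of 3.89 to 4.11 on the 3D arrays and 3.42 to 3.64 on the 2D arrays. PECAM1, an adhesion molecule of endothelium and platelets, rose by 1.27 ± 0.14 (SE, limma adjusted p = 0.00166), with values of 4.88 to 5.07 in 3D and dim values of 3.52 to 3.98 in 2D. VWF, which defines endothelium, gave -0.04 ± 0.15 and DCN of fibroblasts 0.12 ± 0.09. Of 5 leukocyte markers 2 were measured, with means of 4.01 to 4.26 in 3D and 4.43 to 4.66 in 2D. No detection calls exist to say which of these are absent, and their part in the SOX17 result was not tested.

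SOX13, a group D factor without an activation domain of its own, read 6.85, 7.21 and 7.15 in 3D and 6.25, 6.05 and 6.14 in 2D. The groups were clearly apart, again with 3D replicate 1 the lowest of its group. The change was 0.92 ± 0.12 (SE, limma adjusted p = 0.00345), or 1.90-fold. SOX5 and SOX6, its group D relatives known from cartilage, were dim and gave 0.12 and 0.16 without passing.

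Group C factors are activators of neural and mesenchymal progenitors. SOX12, of this group, fell: it read 6.77, 7.02 and 6.83 in 3D and 7.38, 7.51 and 7.61 in 2D (change -0.63 ± 0.11 SE, limma adjusted p = 0.0114). A second SOX12 probe set, dimmer, gave -0.40. With the limma adjustment over all probe sets neither set passed (adjusted p = 0.306 for the second and 0.0547 for the one used). SOX4, also a bright probe set, averaged 9.29 ± 0.07 in 3D and 9.55 ± 0.08 in 2D (SD, n = 3), with all 3D arrays lower, and did not pass (-0.26 ± 0.09 SE, adjusted p = 0.142). SOX11 was dim and gave -0.03 ± 0.10. Of the remaining members, SOX8 of the neural crest group had the largest change that did not pass (0.29 ± 0.15, adjusted p = 0.293), and SOX1, SOX3, SOX10, SOX14, SOX15, SOX21 and SOX30 gave -0.19 to 0.08 with overlapping groups.

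**Figure D4:**
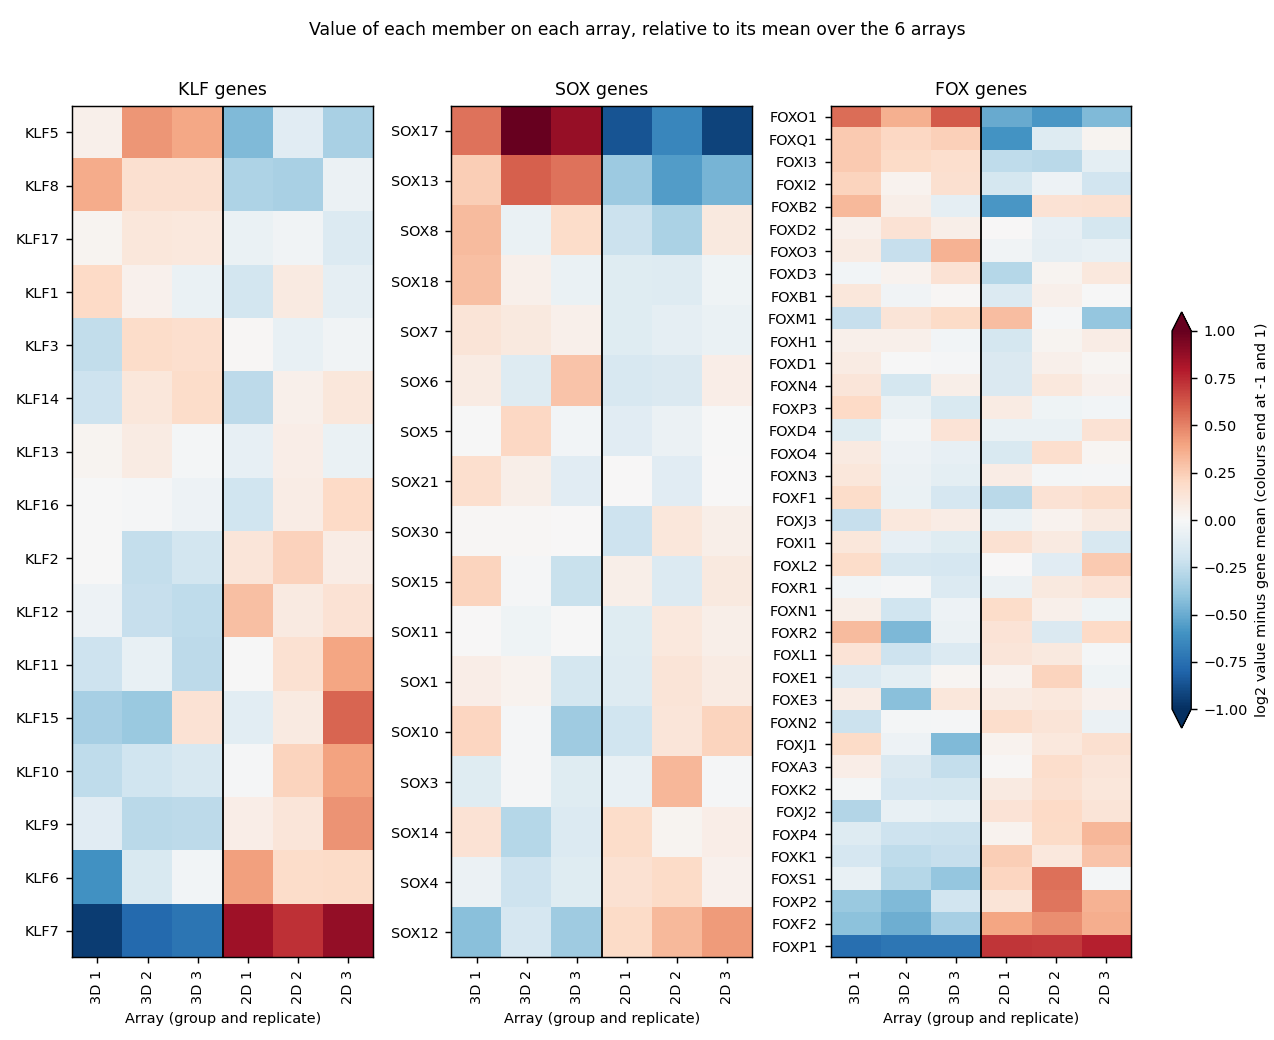
Value of each KLF, SOX and FOX gene (rows, by change) on each 3D and 2D array (columns), as the log2 difference from the gene's mean over 6 arrays; red is above and blue below that mean. Rows at the top and bottom of each panel, such as SOX17 and KLF7, separate at the line between 3D and 2D, and KLF6 on 3D replicate 1 stands below the other 3D arrays.

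Among the FOX genes 2 rose, 4 fell and 32 did not pass (15.8% called, against 10.0% of all genes), with a median change of -0.05. The groups did not overlap for 13 of 38 genes (34.2%, against 29.2% of all genes), 5 of them higher and 8 lower in 3D. Without 3D replicate 1, 1 rose and 4 fell.

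FOXP1, a repressor known from B cell, heart and lung development, changed most in this family. It read 6.80, 6.83 and 6.83 in 3D and 8.27, 8.26 and 8.33 in 2D. The replicates lay almost on top of each other in either group, so the gap between groups is far wider than their spread. The mean was 6.82 ± 0.02 in 3D and 8.29 ± 0.04 in 2D (SD, n = 3 each), a change of -1.47 ± 0.08 (SE, limma adjusted p = 0.000107), or 2.76-fold lower.

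FOXP2, known for its role in speech and language circuits, also fell. It read 5.31, 5.24 and 5.49 in 3D and 5.81, 6.22 and 6.03 in 2D, a change of -0.67 ± 0.13 (SE, limma adjusted p = 0.0177). FOXP4 gave -0.37 ± 0.11 and did not pass (adjusted p = 0.0732), although all 3D arrays were below all 2D arrays. FOXP3, the factor of regulatory T cells, gave -0.01 ± 0.12 with overlapping groups (95% interval -0.28 to 0.26). Of the 4 FOXP genes, 2 fell and 0 rose (50% called, against 10.0% of all genes). The groups did not overlap for 3 of the 4 (75%, against 29.2% of all genes). The call of FOXP2 held in 3 of the 6 fits that left out 1 array.

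FOXO1, which AKT phosphorylates and holds in the cytoplasm, was the FOX gene that rose most. It read 8.39, 8.18 and 8.44 in 3D and 7.32, 7.24 and 7.39 in 2D, with every 3D array above every 2D array. Its change was 1.02 ± 0.11 (SE, limma adjusted p = 0.00105), or 2.03-fold. FOXO3 gave 0.13 ± 0.15 (95% interval -0.21 to 0.47) and FOXO4 gave -0.02 ± 0.11 (95% interval -0.29 to 0.24), and neither passed. The 3D values of FOXO3 were spread, from 6.01 to 6.59, and its 2 probe sets gave 0.13 and 0.15. FOXO3 has a pseudogene copy of near-identical sequence, which makes its value uncertain. Arrays measure RNA and say nothing of where FOXO proteins are in the cell.

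FOXF2, a factor of gut and lung mesenchyme, read 7.60, 7.51 and 7.67 in 3D and 8.40, 8.47 and 8.37 in 2D. The groups were well separated, and the change was -0.82 ± 0.09 (SE, limma adjusted p = 0.00159), or 1.76-fold lower. FOXQ1, linked to epithelial plasticity, lies 74.8 kb from FOXF2 on chromosome 6 in RefSeq (GRCh38.p14). It averaged 6.75 ± 0.03 in 3D and 6.29 ± 0.32 in 2D (SD, n = 3), and its 0.47 ± 0.16 did not pass (adjusted p = 0.121). KLF5 and KLF12, 609 kb apart on chromosome 13, gave 0.59 and -0.36, and KLF12 did not pass. FOXF1 and FOXL1, 63.1 kb apart on chromosome 16, gave -0.03 and -0.13. FOXE3 and FOXD2, 20.0 kb apart on chromosome 1, gave -0.15 and 0.17, and neither passed. FOXR2 and KLF8, 282 kb apart on chromosome X, gave -0.13 and 0.46. Pairs of members within 1 Mb numbered 5 and were looked up after the values were seen.

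FOXK1, a repressor that restrains autophagy genes, read 6.98, 6.89 and 6.92 in 3D and 7.39, 7.25 and 7.43 in 2D (change -0.43 ± 0.09 SE, limma adjusted p = 0.0282). Its relative FOXK2 gave -0.24 ± 0.09 and did not pass (adjusted p = 0.158), and neither did FOXJ2 at -0.31 ± 0.10 (adjusted p = 0.0962). Of the 5 FOXJ and FOXK genes, these 3 had every 3D array below every 2D array, while FOXJ1 and FOXJ3 overlapped. That is 60%, against 29.2% of all genes and 42.8% of genes above the upper quartile. FOXI3, which acts in ectodermal organs such as hair and teeth, read 6.52, 6.45 and 6.43 in 3D and 6.001, 5.987 and 6.160 in 2D. The rise, 0.42 ± 0.09 (SE, limma adjusted p = 0.0322), was the smallest among the 12 called members, and it did not pass in any fit that left out 1 array.

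FOXM1 gave 0.06 ± 0.19 (95% interval -0.39 to 0.51), and its arrays overlapped, from 7.28 to 7.70 in 3D and from 7.12 to 7.82 in 2D. FOXS1, a forkhead gene of pericytes, had the largest change of a FOX gene that did not pass (-0.50 ± 0.16, limma adjusted p = 0.103). FOXJ3 and FOXN2, whose probe sets were bright, had changes of -0.04 ± 0.12 and -0.17 ± 0.11 and overlapping groups. FOXD4, at -0.01, has near-identical paralogs that make its value uncertain. None of the 6 FOXN and FOXR genes passed (limma), and 0 of them had an unadjusted p under 0.05.

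Genes that act with these families were read from lists of targets, partners and relatives. Of 20 listed FOXO targets 13 were measured; 3 rose, 1 fell and 9 did not pass (30.8% called, against 10.0% of all genes), with a median of 0.02. TRIB2, encoding a pseudokinase that itself represses FOXO activity, rose by 1.75 ± 0.23 (SE, limma adjusted p = 0.00354). It has 2 probe sets, and the one used read 6.72, 7.61 and 7.60 in 3D and 5.67, 5.57 and 5.45 in 2D. The mean of both sets gave a smaller rise of 1.23 ± 0.15 (limma adjusted p = 0.00205). BCL2L11, encoding the cell death protein BIM, rose by 0.70 ± 0.11 (adjusted p = 0.00629) and CAT, the peroxide-degrading catalase, by 0.67 ± 0.10 (adjusted p = 0.00496). FBXO32, the muscle ubiquitin ligase gene also called atrogin-1, fell by 1.21 ± 0.15 (adjusted p = 0.00260). The called FOXO targets thus did not share a direction. Without 3D replicate 1, 4 rose and 1 fell.

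Upstream of FOXO, 11 of 18 insulin, PI3K and AKT genes were measured, with a median of -0.07. Of these, 1 rose, 1 fell and 9 did not pass (18.2% called, against 10.0% of all genes). The kinase gene SGK2 rose by 0.98 ± 0.21 (SE, limma adjusted p = 0.0252), and IRS2, the insulin receptor substrate, fell by 0.78 ± 0.14 (adjusted p = 0.0143). AKT1 and AKT2 gave 0.11 ± 0.09 and 0.17 ± 0.09 without passing. Both calls were lost in at least 1 of the fits that left out an array: the adjusted p of SGK2 reached 0.0922 (without 3D replicate 3) and that of IRS2 0.0584 (without 2D replicate 3).

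Of 15 FOXM1 targets 12 were measured, and 0 passed (limma), with 2 at an unadjusted p under 0.05 and a median of 0.32. The largest estimates, KIF20A at 0.59 ± 0.31 and TOP2A at 0.52 ± 0.22, came with overlapping groups. Estimates were positive for 10 of the 12. Only CDC25B (0.31 ± 0.10, limma adjusted p = 0.0903) had every 3D array above every 2D array. That is 8.33%, against 29.2% of all genes whose groups did not overlap. Of 9 SP factors, the nearest relatives of the KLF proteins, 0 passed (limma), with 1 at an unadjusted p under 0.05 and changes of -0.29 to 0.22. Of 11 KLF co-repressor genes 8 were measured and 1 was called (12.5%, against 10.0% of all genes). The histone-binding gene RBBP7 rose (0.44 ± 0.10, limma adjusted p = 0.0276, and up to 0.0984 with an array left out).

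Of 18 clock and glucocorticoid-responsive genes 12 were measured, with a median of 0.17. Of these, 0 rose and 1 fell (8.33% called, against 10.0% of all genes). CRY1, a clock repressor, fell by 0.47 ± 0.09 (SE, limma adjusted p = 0.0176). With an array left out, its adjusted p reached 0.0730. Of 16 immediate early genes, serum-induced as KLF2, KLF6 and KLF10 are, 12 were measured, with a median of 0.03. Here 1 rose and 0 fell (8.33% called, against 10.0% of all genes). EGR3 rose by 1.16 ± 0.16 (limma adjusted p = 0.00362). FOS gave 1.53 ± 0.41 and EGR1 1.30 ± 0.45, but in both genes the groups overlapped, the lowest 3D array (replicate 1, 7.08 for FOS and 10.40 for EGR1) lying below the highest 2D array (replicate 2, 7.10 and 10.73). JUN gave -0.75 ± 0.20 (adjusted p = 0.0582). Without 3D replicate 1, the clock list had 2 risen and 1 fallen members and the immediate early list likewise 2 and 1. Leaving out this array also raised the calls over all genes.

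**Figure D5:**
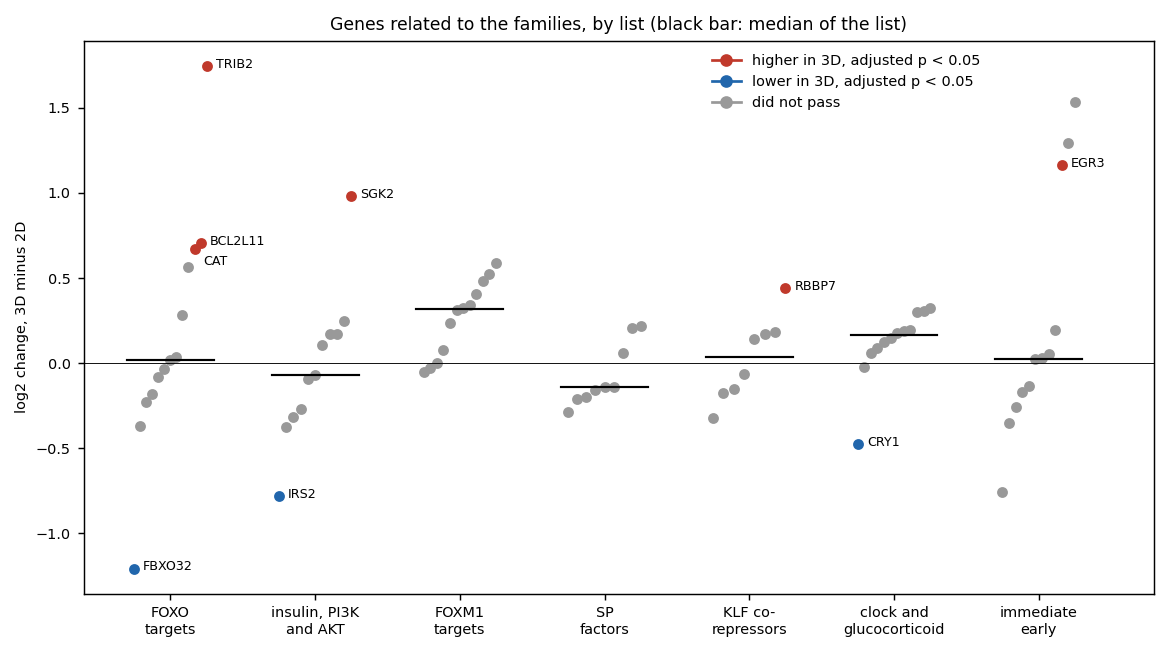
Log2 change in 3D relative to 2D (y axis) of each measured gene of 7 related lists (x axis), with called genes coloured and named and the list median as a black bar. FOXO targets run from FBXO32 at -1.21 to TRIB2 at 1.75, whereas no SP factor or FOXM1 target passed.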

How the data were processed

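Total RNA from 6 samples was hybridised to 1 array each, after labelling of 100 ng. The authors deposited log2 values of 53617 probe sets, made with RMA per the submitters' processing notes, and no source used here gives its version, probe grouping or filters. That the scale is log2 was read from the values (0.30 to 13.87). Platform annotation named 16098 probe sets with 1 symbol, 0 with several and 37519 with none; symbols were updated through a RefSeq gene table (GRCh38.p14, 16098 matched). A gene was represented by its probe set of highest mean, so 71 of 74 member probe sets were used and FOXD1, FOXO3 and SOX12 had another. All 71 members were tested, with no filter on low values.

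The comparison of 3D with 2D used limma 3.58.1 (statmod 1.5.0, R 4.3.3), group alone, two-sided, with Benjamini-Hochberg adjustment over 14884 genes and a threshold of 0.05. Precision is limited by the number of arrays. The fit was tested on simulated data with 200 changed genes. Members, lists and naming rules were chosen with earlier results of these data known; named were all called members, in each family the 3 of highest mean and the 2 largest changes that did not pass, 13 listed genes where measured, and up to 4 called genes per related list. Other genes were named after their values were seen. Lists were SP factors, KLF co-repressors, insulin, PI3K and AKT genes, FOXO targets, FOXM1 targets, clock and immediate early genes, and cell type markers. Replicate numbers were not treated as pairs, and the labels do not say whether they pair the groups. Deviations of same-numbered arrays correlated at -0.28, -0.06 and -0.18, and those of other pairs at -0.14 to 0.23. With 3 arrays per group these values cannot settle the pairing.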

Additional observations from a re-analysis of the deposited data

How the results depend on the processing

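Directions of the 12 called members were the same under each other setting that tested them and without each array (the filter on dim probe sets removed KLF8), and calls of KLF7, FOXP1, FOXF2, SOX17, FOXO1 and SOX13 held throughout. Against a 1.2-fold limit (limma treat) 592 genes passed, with 6 members: 1 KLF, 2 SOX and 3 FOX genes. With every probe set tested singly the counts were again 6 members, 1 KLF and 3 FOX genes, the same 6 genes in both settings. A trended robust variance called 1931 of all genes (977 rose, 954 fell) and 16 members (5 rose, 11 fell). Among these members were 5 KLF genes (1 rose, 4 fell). The setting added KLF6, KLF10, KLF12, SOX4 and FOXP4 and lost KLF8. With the replicate number as a block 760 genes passed, with 8 members and 3 FOX genes. The calls of FOXP2, KLF8, FOXK1 and FOXI3 were lost in that fit. Whether the numbers pair the samples is not known. Across the fits that left out 1 array, all genes called ran from 775 (without 3D replicate 3) to 1899 (without 3D replicate 1). Members called ran from 7 (without 3D replicate 2 or 3) to 11, KLF genes from 1 (without 2D replicate 2 or 3D replicate 2 or 3) to 3, and FOX genes from 3 (without 2D replicate 3 or 3D replicate 2) to 5. Changes near 0 reversed in these fits: FOXJ3 ran from -0.10 to 0.070, SOX11 from -0.093 to 0.020, FOXM1 from -0.12 to 0.23 and FOXO3 from -0.0075 to 0.28. FOXI3 did not pass after a repeated quantile normalization. KLF9, KLF12 and FOXP4 passed with the filter on dim probe sets, which tests fewer genes. It called 14 members (5 rose and 9 fell) and 1769 genes in all. Other causes were not tested. With 3 arrays per group, signals near background limit small changes.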
